A study of Mus musculus with 6 samples.

Results

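Expression of 8 genes that mark fetal blood stem cells was followed in KSL cells, the c-Kit+ Sca1+ Lineage- fraction of mouse blood-forming tissue that holds the stem cells. The genes were Lin28a and Lin28b, the insulin-like growth factor 2 mRNA-binding protein genes Igf2bp1, Igf2bp2 and Igf2bp3, and the DNA-binding protein genes Hmga2, Arid3a and Sox17. They were taken by name, through the RefSeq accession of each array probe, and make up 8 of the 20660 genes named on the array. Each gene was represented by its brightest probe.

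The 6 samples came from C57BL6 mice and were labelled HSCs, haematopoietic stem cells. Adult bone marrow gave 2 knockout (KO) samples, CreERT with both Tif1b alleles floxed (Tif1b f/f), and 2 wild-type (WT) samples, CreERT with Tif1b w/w. Fetal liver gave 1 KO sample, Tie2-Cre with Tif1b f/f, and 1 WT sample, Tie2-Cre with Tif1b w/w. The genotype labels of marrow replicate 2 read Tif2b, which was taken as the same gene, Trim28 in current nomenclature, a corepressor of transcription. Every group thus carried a Cre: Tie2-Cre acts in endothelium and in the blood cells that descend from it, and CreERT is switched on by tamoxifen, with a promoter that the labels do not give. Tissue and Cre driver therefore cannot be told apart. Separate animals are nowhere stated for the 2 samples of a group, so a p-value here measures only how far these samples spread, and that spread may be technical.

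Lin28a and Lin28b are RNA-binding proteins that bind let-7 microRNA precursors and keep them from being processed. Mature let-7 represses many mRNAs, Hmga2 and the Igf2bp mRNAs among them, so that cells with Lin28 hold back let-7 and keep its targets. In mouse blood formation Lin28b is known as a fetal factor, its forced expression gives adult progenitors fetal traits, and Hmga2 and Arid3a are known as downstream genes. The Igf2bp proteins bind mRNAs and stabilise or localise them, and Sox17 is a transcription factor required by fetal and neonatal blood stem cells.

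The microRNAs that Lin28 holds back share a seed, the bases by which a microRNA pairs with its targets. In the RefSeq table, 10 mature mouse microRNAs named let-7 or miR-98 had the seed GAGGUAG at bases 2 to 8. Of these, 3 are printed 5′ to 3′ with the seed in capitals, to show what the family shares and where it differs. On the GRCm38.p6 build they lie at chr15:85707325-85707346 on the plus strand (let-7b), chr9:106178846-106178867 on the plus strand (let-7g) and chrX:151913229-151913250 on the plus strand (miR-98).
mmu-let-7b-5p: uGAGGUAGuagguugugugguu
mmu-let-7g-5p: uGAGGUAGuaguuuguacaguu
mmu-miR-98-5p: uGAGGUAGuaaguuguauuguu
The arrays measured mRNA, and the levels of these microRNAs were not analysed here.

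Promoter sequence was matched for 5 of the 8 genes in the RefSeq table (Lin28a, Lin28b, Igf2bp2, Igf2bp3 and Hmga2). The 250 bases before the annotated start are printed for 3 of them, 5′ to 3′ on the gene's strand with CpG dinucleotides in capitals. Lin28b and Igf2bp3 are shown because neither was well above background in bone marrow, and Igf2bp2 because it was measured in both tissues. On GRCm38.p6 they lie on the minus strand at chr10:45470202-45470451 (Lin28b), chr6:49214955-49215204 (Igf2bp3) and chr16:22163300-22163549 (Igf2bp2).
Lin28b: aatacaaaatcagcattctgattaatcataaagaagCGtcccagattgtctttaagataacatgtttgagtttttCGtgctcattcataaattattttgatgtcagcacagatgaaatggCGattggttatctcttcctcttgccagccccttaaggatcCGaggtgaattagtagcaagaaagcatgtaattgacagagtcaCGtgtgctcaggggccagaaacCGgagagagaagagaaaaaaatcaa
Igf2bp3: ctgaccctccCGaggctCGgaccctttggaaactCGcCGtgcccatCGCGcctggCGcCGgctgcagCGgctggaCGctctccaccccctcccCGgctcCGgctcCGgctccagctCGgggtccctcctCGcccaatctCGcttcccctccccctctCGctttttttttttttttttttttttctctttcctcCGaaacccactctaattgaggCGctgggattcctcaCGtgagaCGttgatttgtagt
Igf2bp2: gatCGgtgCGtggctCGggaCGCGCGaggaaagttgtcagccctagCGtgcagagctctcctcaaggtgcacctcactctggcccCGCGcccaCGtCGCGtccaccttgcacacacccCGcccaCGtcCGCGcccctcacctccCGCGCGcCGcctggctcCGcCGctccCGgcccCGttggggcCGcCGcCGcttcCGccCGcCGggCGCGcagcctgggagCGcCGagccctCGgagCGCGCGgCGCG
The Lin28b window held 6 CpG and was 39.2% G and C, the Igf2bp3 window held 21 CpG at 60.4%, and the Igf2bp2 window held 40 CpG at 77.2%. Of the 32851 windows of that length in the table, 50.4% held as many CpG as Lin28b, 16.3% as many as Igf2bp3 and 1.31% as many as Igf2bp2, against a median of 6. The windows of Lin28a and Hmga2, also measured in both tissues, held 7 CpG at 61.2% and 8 CpG at 56.4%. As many CpG were held by 46.3% and 43.0% of all windows, so these 2 were close to Lin28b. The E-box CACGTG, the same on both strands, occurred 1 time each in the Lin28b and Igf2bp3 windows and in none of the windows of Lin28a, Igf2bp2 and Hmga2, and in 6.02% of all windows. CCAAT, searched on both strands, occurred 1 time each in the Lin28b and Igf2bp3 windows and in 33.8% of all windows. TATAAA, also searched on both strands, was in none of the 5 windows and in 12.4% of all. The GC box GGGCGG, searched likewise, occurred 2 times in the Igf2bp2 window, 1 time in that of Hmga2 and in 32.7% of all windows.

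The arrays carried 62976 spots and between 24385 and 31423 probes well above background per array. Levels are log2 signals relative to each array's 75th percentile, a scale on which probes of different genes cannot be compared. Trim28, the targeted gene, had levels of 1.28 and 0.75 in bone marrow KO and 1.67 in fetal liver KO, against 5.54 in bone marrow WT replicate 2 and 5.97 in fetal liver WT. 1 array stood apart, labelled as bone marrow WT replicate 1: Trim28 was at 2.45 in its scanner file, and Kit, which the sort selects, was at 1.30, against 4.17 to 4.50 on the other 5 arrays. The summed linear signal of 10 B lymphoid genes was 414 in that file, and between 14.9 and 44.4 on the other arrays. The column deposited for this sample in the authors' value table held other values, with Trim28 at 5.18, Kit at 4.16 and a B lymphoid sum of 25.2. For the other 5 arrays, 100% of the 24488 to 25725 brighter probes compared were, in the table, within 1% of the scanner signal divided by a constant. This held for 1.41% of the probes of that sample, whose description line also names Hp1aKD c-Kit+ Lineage- cells (that of bone marrow KO replicate 1 names Hp1gKD). Each result is therefore given with the table's values for that sample and with its scanner file.

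Of the 8 genes, 7 were lower in adult bone marrow than in fetal liver, by 5.48-fold (Lin28a) to at least 327.5-fold (Lin28b), and Sox17 was well above background on no array. In bone marrow Lin28b, Igf2bp1 and Igf2bp3 were well above background on none of the 4 arrays, with either source for WT replicate 1. Lin28a, Igf2bp2, Hmga2 and Arid3a were measured in both tissues. In a sorted bulk sample, fewer cells that express a gene and less of its RNA in each cell cannot be told apart.

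**Figure D1:**
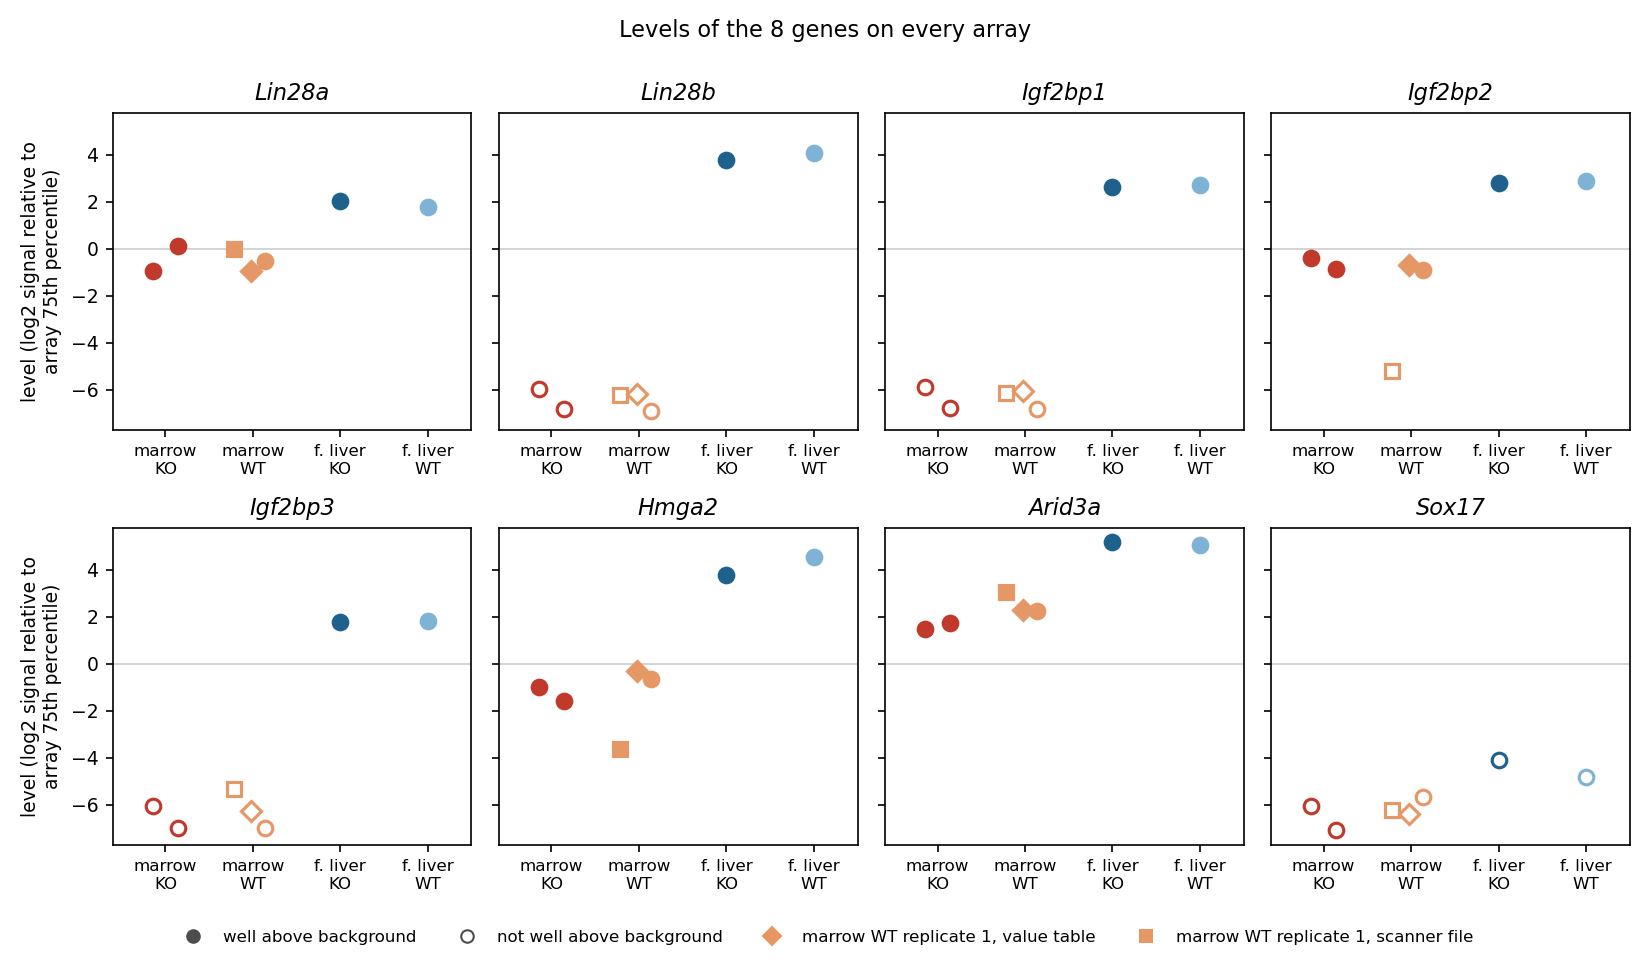
Level (log2 signal relative to the array's 75th percentile) of the 8 genes on every array, with bone marrow left of fetal liver and KO left of WT; filled symbols were well above background and open ones were not. WT replicate 1 of bone marrow is drawn from the value table (diamond) and from its scanner file (square), and on every panel except that of Sox17 both fetal liver arrays lie above all bone marrow symbols by more than 1 unit.

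Lin28b, the family member known for its fetal role, had levels of -5.97 and -6.81 in bone marrow KO and of -6.16 (table; -6.20 in the scanner file) and -6.88 in bone marrow WT, against 3.79 in fetal liver KO and 4.07 in fetal liver WT. The bone marrow values were at background and the fetal liver values far above it, with no overlap. Since the probe was not well above background on any bone marrow array, the difference is a bound: Lin28b was at least 327.5-fold lower in bone marrow. For such a bound the fetal liver mean was divided by a ceiling for bone marrow, on each array the dimmest signal that still counted as well above background or, if larger, the signal of the Lin28b probe. Within KO it was at least 308-fold lower and within WT at least 349-fold lower. The other Lin28b probe was also at background on all bone marrow arrays, and had levels of -0.28 in fetal liver KO and -0.30 in fetal liver WT.

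Lin28a, its relative, which is best known from embryonic stem cells, had levels of -0.96 and 0.14 in bone marrow KO and -0.92 and -0.52 in bone marrow WT (0.01 for replicate 1 in the scanner file), against 2.02 in fetal liver KO and 1.77 in fetal liver WT. It was well above background on all arrays, and the bone marrow arrays spread over about 1 log2 unit below the fetal liver arrays. The mean was -0.56 ± 0.51 in bone marrow (SD, n = 4) and 1.89 ± 0.18 in fetal liver (SD, n = 2), a level 5.48-fold lower in bone marrow.

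Igf2bp1 and Igf2bp3, the Igf2bp family members known as oncofetal, followed Lin28b in being at background in bone marrow. Igf2bp1 had levels of -5.89 and -6.75 in bone marrow KO and -6.06 (-6.12 in the scanner file) and -6.82 in bone marrow WT, against 2.64 in fetal liver KO and 2.74 in fetal liver WT. This put it at least 138-fold lower in bone marrow. Igf2bp3 had levels of -6.06 and -6.97 in bone marrow KO and -6.27 (-5.32 in the scanner file) and -7.00 in bone marrow WT, against 1.79 in fetal liver KO and 1.80 in fetal liver WT, at least 74.3-fold lower in bone marrow. Both genes had nearly the same level on the KO and the WT fetal liver array.

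Igf2bp2, the member of that family that adult tissues also express, was above background in bone marrow. Its levels were -0.38 and -0.86 in bone marrow KO and -0.68 and -0.88 in bone marrow WT, against 2.78 in fetal liver KO and 2.88 in fetal liver WT. The mean was -0.70 ± 0.23 in bone marrow (SD, n = 4) and 2.83 ± 0.065 in fetal liver (SD, n = 2), 11.6-fold lower in bone marrow. The scanner file of WT replicate 1 had Igf2bp2 at -5.21, not well above background. The other Igf2bp2 probe gave the same picture, with levels of -1.75 and -2.33 in bone marrow KO, -1.99 (-5.91 in the scanner file) and -2.36 in bone marrow WT, 1.53 in fetal liver KO and 1.53 in fetal liver WT.

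Hmga2, an architectural chromatin protein and a let-7 target that promotes self-renewal of young stem cells in mice, had levels of -0.97 and -1.60 in bone marrow KO and -0.31 and -0.63 in bone marrow WT, against 3.79 in fetal liver KO and 4.53 in fetal liver WT. The scanner file of WT replicate 1 put it at -3.62, the lowest of the bone marrow values. The mean was -0.88 ± 0.55 in bone marrow (SD, n = 4) and 4.16 ± 0.53 in fetal liver (SD, n = 2), 32.9-fold lower in bone marrow. Hmga2's other probe had levels of -3.62 and -3.74 in bone marrow KO and -2.33 (-5.98 in the scanner file) and -2.82 in bone marrow WT, against 2.10 in fetal liver KO and 2.68 in fetal liver WT.

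Arid3a, a transcription factor of early B cells and of blood stem cells, was well above background on every array. Its levels were 1.49 and 1.73 in bone marrow KO and 2.29 (3.04 in the scanner file) and 2.26 in bone marrow WT, against 5.18 in fetal liver KO and 5.03 in fetal liver WT. The mean was 1.94 ± 0.39 in bone marrow (SD, n = 4) and 5.11 ± 0.10 in fetal liver (SD, n = 2), 8.97-fold lower in bone marrow. The other Arid3a probe had levels of 0.38 and 0.61 in bone marrow KO and 1.05 (1.16 in the scanner file) and 1.06 in bone marrow WT, against 4.43 in fetal liver KO and 4.23 in fetal liver WT.

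Sox17 was not well above background in either tissue. Its brighter probe had levels of -6.04 and -7.09 in bone marrow KO and -6.39 (-6.23 in the scanner file) and -5.68 in bone marrow WT, against -4.10 in fetal liver KO and -4.82 in fetal liver WT. None of these, nor any value of its other probe, was well above background, so no fold is given and the gene entered no test.

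The tissue difference was tested with limma over all 6 arrays, with tissue and genotype in the model and p-values adjusted over all genes tested (Benjamini-Hochberg, two-sided, threshold 0.05). With the table's values, the 4 genes measured in both tissues were all called lower in bone marrow, where 22.8% of the 13621 genes tested were called, 13.9% as lower and 8.88% as higher. Bone marrow minus fetal liver was -2.46 ± 0.35 for Lin28a (SE, adjusted p = 0.0110), -3.53 ± 0.22 for Igf2bp2 (adjusted p = 0.00199), -5.04 ± 0.25 for Hmga2 (adjusted p = 0.00148) and -3.16 ± 0.25 for Arid3a (adjusted p = 0.00295). Lin28b, Igf2bp1 and Igf2bp3 were called lower too, but they entered the test only because the fetal liver arrays, where they were high, passed the filter on dim probes. Their calls are a description only, and the bounds given above stand in place of their differences. The median difference of the 7 genes was -5.04, also with those 3 at their bounds, and that of all genes tested -0.26. Of the 11315 genes well above background on all 6 arrays, 14 had a difference as low as or lower than Hmga2 (itself included), 42 as low as Igf2bp2, 61 as low as Arid3a and 140 as low as Lin28a.

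With the scanner file in place of the table's values, of the 4 genes measured in both tissues only Arid3a was called lower by the same limma fit (adjusted p = 0.0405). The 3 genes at background in bone marrow were called too, again a description only. With quantile normalization of the scanner values Arid3a was not called (-2.62 ± 0.43, adjusted p = 0.0606). Of all 13780 genes tested, 1.24% were called lower and 0.864% higher. Lin28a had a difference of -2.22 ± 0.41 (SE, adjusted p = 0.0641), Hmga2 of -5.87 ± 0.92 (adjusted p = 0.0523) and Igf2bp2 of -4.66 ± 1.31 (adjusted p = 0.126). When WT replicate 1 of bone marrow was left out altogether, the 4 genes measured in both tissues were all called. Lin28a had the largest adjusted p of these (0.0368, limma), where 10.6% of 14591 genes were called in either direction. Without KO replicate 1 or 2 of bone marrow the scanner file gave no call of the 7, where 0% and 0.0072% of all genes were called. Without WT replicate 2 it gave 2, where 0.0427% of all genes were called. Both fetal liver arrays shared a slide that held no bone marrow array, so tissue and slide cannot be told apart.

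Within each genotype the direction was the same. Among KO arrays, bone marrow minus fetal liver with the table's values was -5.07 ± 0.40 for Hmga2, -3.57 ± 0.31 for Arid3a and -3.40 ± 0.36 for Igf2bp2 (SE, limma adjusted p 0.00805 to 0.0106), where 5.59% of all genes were called lower. Lin28a had a difference of -2.43 ± 0.53 (adjusted p = 0.0540). Among WT arrays the differences were -5.01 ± 0.40 for Hmga2, -2.76 ± 0.31 for Arid3a and -3.65 ± 0.36 for Igf2bp2 (SE, limma adjusted p 0.0114 to 0.0151), where 3.47% of all genes were called lower. Lin28a had a difference of -2.48 ± 0.53 in WT (adjusted p = 0.0688). The genes at background in bone marrow give bounds here as well: Igf2bp1 was at least 138-fold lower within KO and within WT, and Igf2bp3 at least 76.7-fold lower within KO and at least 72.0-fold lower within WT. In these contrasts the lone fetal liver array is assumed to vary like the bone marrow arrays. Based on the scanner file the limma fit called no gene of 13780 (0%) in either genotype, although 1362 in WT and 1548 in KO had an unadjusted p under 0.05. Of the genes measured in both tissues, Lin28a, Hmga2 and Arid3a were among these in each genotype, and Igf2bp2 in WT only. With 1 bone marrow array left out, the scanner file gave Hmga2 -8.15 to -5.17 and Igf2bp2 -8.09 to -3.76 within WT. Arid3a ran from -2.77 to -1.99 there, and Lin28a from -2.28 to -1.76. Within KO the ranges were -5.38 to -4.76 (Hmga2), -3.64 to -3.17 (Igf2bp2), -3.69 to -3.45 (Arid3a) and -2.97 to -1.88 (Lin28a). With the table's values Lin28a fell on either side of the threshold in each genotype with 1 array left out, at -2.69 to -2.28 in WT and -2.97 to -1.88 in KO.

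**Figure D2:**
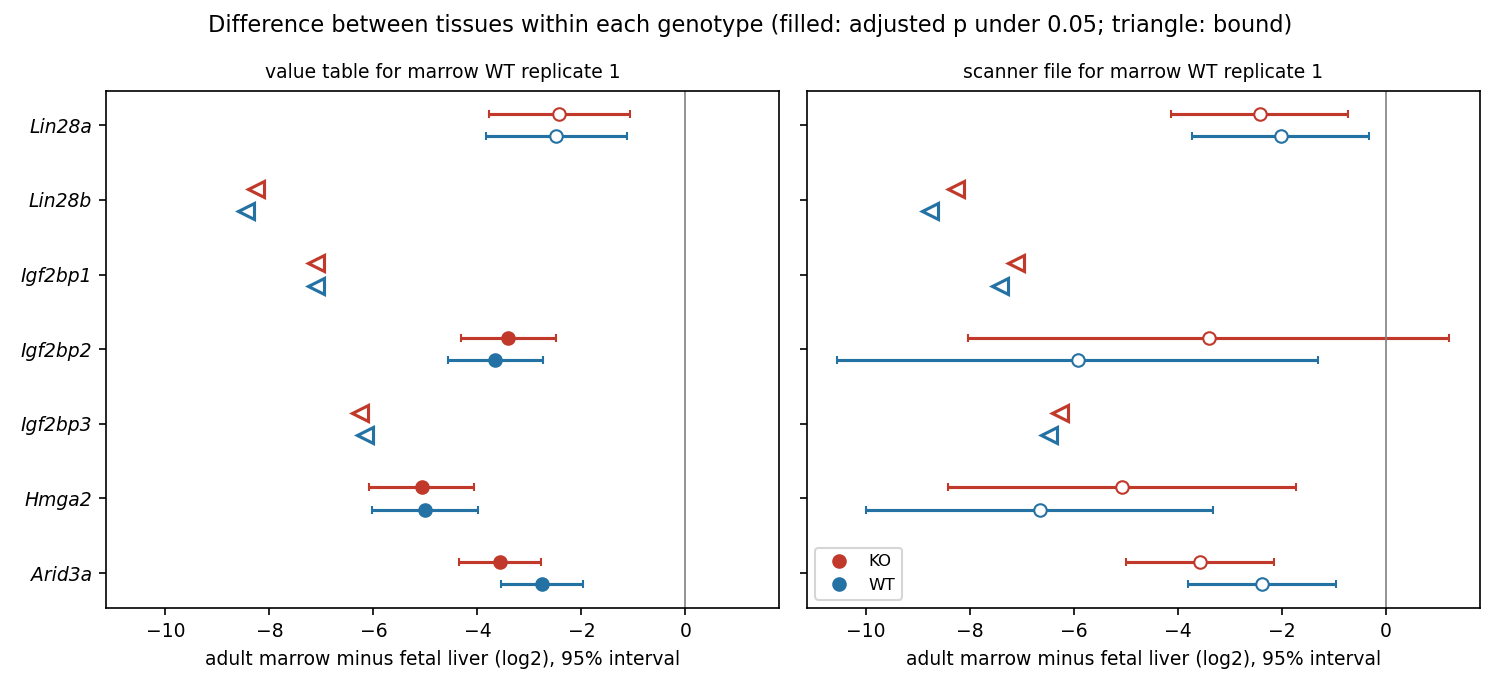
Difference in level, adult bone marrow minus fetal liver (log2, with 95% intervals from limma), for the 7 genes tested, KO above WT, with the value table (left) or the scanner file (right) for bone marrow WT replicate 1. Triangles are bounds for the 3 genes at background in bone marrow, and filled points had an adjusted p under 0.05: Igf2bp2, Hmga2 and Arid3a in each genotype with the table and no gene with the scanner file, where the intervals of Igf2bp2 and Hmga2 widen and that of Igf2bp2 in KO crosses 0.

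Levels of markers of other cell types that moved with tissue were also recorded, as summed linear signal relative to the 75th percentile. The sum of 14 endothelial genes was 196 and 137 in bone marrow KO and 165 and 130 in bone marrow WT, against 303 in fetal liver KO and 328 in fetal liver WT. Of its defining genes, Cdh5 and Lyve1 were well above background on no array with the table's values. Egfl7 (6.59 to 8.11) and Kdr (3.55 to 5.29), also on that list, were well above background on all 6 arrays. Egfl7 alone made up most of each sum. Tek, Esam and Pecam1 went the other way, with higher means in bone marrow with the table's values. Of the 11 endothelial genes tested, 3 were called lower and 2 higher with the table's values, beside 13.9% and 8.88% of all genes, and 0 with the scanner file. The sum of 12 hepatocyte and hepatoblast genes was 44.5 and 33.5 in bone marrow KO and 80.3 and 46.1 in bone marrow WT, against 55.8 in fetal liver KO and 77.0 in fetal liver WT. These sums overlap, and Trf (4.45 to 6.15 in bone marrow) made up most of each bone marrow sum. Gene by gene, 8 of the 11 tested were called lower in bone marrow and none higher by limma with the table's values. With the scanner file 4 were called lower. These counts hold genes that entered the test only through fetal liver, where they were high, and are a description only. Over all genes 13.9% were called lower and 8.88% higher with the table's values, and 1.24% and 0.864% with the scanner file. Of the 8, Dlk1 (-6.49) and Afp (-1.27) were well above background on all 6 arrays. Serpina1a (-4.01) was so on 2 of 4 bone marrow arrays, and Fga (-1.83) on 2 of 4 and on 1 of 2 fetal liver arrays. Both passed the filter only through fetal liver. Alb, Ahsg, Ttr and Fgb were well above background on no bone marrow array. Alb, the albumin gene, was at -2.19 in fetal liver KO and -0.42 in fetal liver WT, at least 8.65-fold lower in bone marrow, and Apoa1 was well above background on no array. Across that same pair of fetal liver arrays, KO minus WT was -0.28 for Lin28b, -0.10 for Igf2bp1 and -0.01 for Igf2bp3, with 1 array per genotype and no test. Whether hepatocyte RNA contributed to the levels of these genes was not tested. The sum of 10 neutrophil genes was 421 and 53.5 in bone marrow KO and 2295 and 1180 in bone marrow WT, against 3317 in fetal liver KO and 3744 in fetal liver WT. Ly6a, the gene of the Sca1 antigen used in the sort, had levels of 3.60 and 6.04 in bone marrow KO and 3.36 and 4.75 in bone marrow WT, against 0.77 in fetal liver KO and 0.31 in fetal liver WT. The sum of 10 megakaryocyte genes was 252 and 283 in bone marrow KO and 135 and 120 in bone marrow WT, against 36.5 in fetal liver KO and 42.3 in fetal liver WT, and 5 of its 10 genes were called higher in bone marrow with the table's values. The sum of 10 erythroid genes was 109.5 and 39.4 in bone marrow KO and 23.5 and 32.5 in bone marrow WT, against 218 in fetal liver KO and 110 in fetal liver WT, with 3 of 10 genes called lower. The sum of 8 mast cell and basophil genes was 148 and 107.2 in bone marrow KO and 41.1 and 47.1 in bone marrow WT, against 174 in fetal liver KO and 153 in fetal liver WT, with 3 of 8 genes called higher and 1 lower. Hdc, at 7.25 in fetal liver KO and 7.01 in fetal liver WT, made up most of both fetal liver sums. Fcer1a, Mcpt8, Tpsb2 and Cma1 went the other way, with higher means in bone marrow. The counts of these 3 lists were made with the table's values, where 8.88% of all genes were called higher and 13.9% lower. For these 3 lists the scanner file of bone marrow WT replicate 1 gave sums of 0.786, 419.7 and 14.6. The part of these differences in the tissue result was not tested.

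Between KO and WT, none of the 4 genes measured in bone marrow passed the threshold. None was called by limma over the 4 bone marrow arrays with either source, where 0.807% of 12882 genes were called with the table and 0% of 13107 with the scanner file (554 of these had an unadjusted p under 0.05). Lin28b, Igf2bp1 and Igf2bp3 were at background in KO and in WT bone marrow, so a KO effect there could be neither sized nor tested.

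Hmga2 and Arid3a came nearest with the table's values. Hmga2 was lower on the KO than on the WT array of each of the 3 slides, each of which held 1 KO and 1 WT array of 1 tissue: KO minus WT was -0.66 and -0.96 on the bone marrow slides and -0.75 on the fetal liver slide. In bone marrow the difference was -0.81 ± 0.32 (SE; 95% interval -1.61 to -0.01; unadjusted p = 0.0482, limma adjusted p = 0.443), and with the slide as a block it had an adjusted p of 0.0622. Over all 6 arrays, a fit added after the data were seen, it was -0.79 ± 0.23 (limma adjusted p = 0.362), where 0.162% of all genes were called. From the scanner file, KO minus WT of the first bone marrow pair was 2.65 and the bone marrow difference 0.84 ± 1.04 (adjusted p = 1), so the direction of Hmga2 rests on which record of that sample is used.

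Arid3a was lower in KO on both bone marrow slides, by -0.79 and -0.53 with the table's values, and had a difference of 0.15 in fetal liver. The bone marrow difference was -0.66 ± 0.25 (SE; 95% interval -1.29 to -0.03; unadjusted p = 0.0419, limma adjusted p = 0.418; with the slide as a block, adjusted p = 0.0947). It was -1.04 ± 0.44 with the scanner file (adjusted p = 1), the same direction. The same bone marrow KO arrays had lower neutrophil sums than the WT arrays, as given above, and a lower sum of 8 monocyte and macrophage genes, 28.1 and 16.8 in KO against 159 and 78.8 in WT. They had higher megakaryocyte, erythroid and mast cell sums than the WT arrays, also given above, and a higher sum of 10 T and NK genes, 204 and 132 in KO against 108 and 88.3 in WT, all with the table's values. The T and NK sum of WT replicate 1 was 231 in its scanner file. Nkg7 (7.01 and 6.28 in KO, 6.51 and 6.08 in WT) and Thy1 (5.80 and 5.33, 2.51 and 3.14) had the highest levels of that list in KO. Il7r (-5.20 and -2.92, -1.53 and -1.06) and Klrd1 (-5.75 and -7.06, -2.98 and -2.90) were lower in KO. The part of these in the Hmga2 and Arid3a differences was not tested.

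Lin28a and Igf2bp2 had small differences of no fixed direction. For Lin28a, KO minus WT was -0.04 and 0.65 on the bone marrow slides and 0.25 in fetal liver, and the bone marrow difference was 0.31 ± 0.43 (SE; 95% interval -0.76 to 1.38; limma adjusted p = 0.968). For Igf2bp2 it was 0.29 and 0.02 on the bone marrow slides and -0.09 in fetal liver, and the bone marrow difference was 0.16 ± 0.29 (SE; 95% interval -0.56 to 0.88; adjusted p = 0.981). The scanner file gave bone marrow differences of -0.16 ± 0.53 for Lin28a and 2.42 ± 1.43 for Igf2bp2 (adjusted p = 1 for both). Left with that file as the only WT array of bone marrow, KO minus WT was 4.59 for Igf2bp2 and 2.34 for Hmga2, a comparison that rests on the array that stood apart.

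In fetal liver, with 1 array per genotype and no test, none of the 7 genes differed by as much as 2-fold between KO and WT, where 9.84% of 12804 genes did. The KO minus WT differences ran between -0.75 for Hmga2 and 0.25 for Lin28a. Igf2bp3, at 1.79 in KO and 1.80 in WT, differed least.

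**Figure D3:**
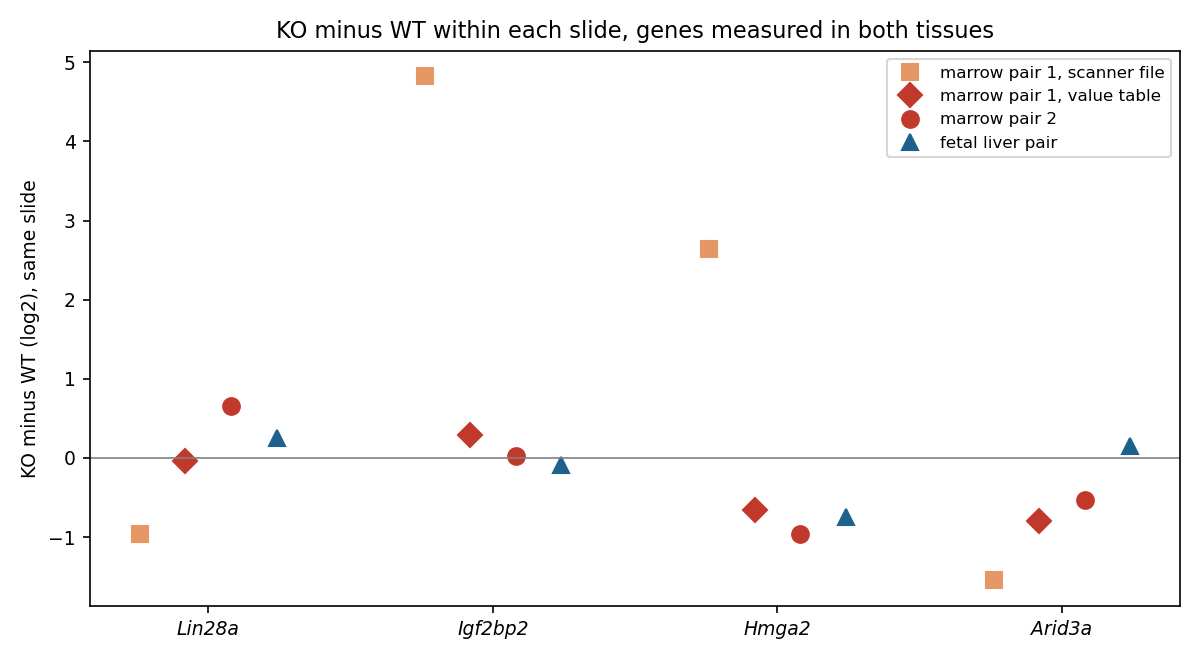
KO minus WT (log2) within each slide for the 4 genes measured in both tissues; each point is 1 KO array against 1 WT array. Hmga2 lies below 0 in all 3 pairs when the value table supplies bone marrow WT replicate 1 (-0.66, -0.96 and -0.75), while the scanner file of that array (squares) moves Igf2bp2 to 4.83 and Hmga2 to 2.65.

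Whether the KO effect differed between the tissues was tested as an interaction. No gene of the 7 was called with either source, and limma called 0% of all genes with both (959 of 13621 had an unadjusted p under 0.05 with the table and 361 of 13780 with the scanner file, none of the 7 among them). The KO effect in bone marrow minus that in fetal liver was -0.81 ± 0.44 for Arid3a (SE; 95% interval -1.93 to 0.31; adjusted p = 0.997) and -0.07 ± 0.56 for Hmga2 (95% interval -1.50 to 1.37; adjusted p = 1.000) with the table's values. The lone fetal liver arrays are assumed to vary like the bone marrow arrays.

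Genes around Lin28 and let-7 were then counted in the tissue comparison, in which 13.9% of all genes were called lower and 8.88% higher. Of 15 tested genes that process let-7 or work with Lin28, 4 were lower and 1 was higher in bone marrow with the table's values, with a median difference of -0.51 against -0.26 for all genes. Tarbp2, a partner of Dicer, differed by -1.35 ± 0.20 (SE, limma adjusted p = 0.0128), Khsrp, which promotes let-7 maturation, by -0.76 ± 0.17 (adjusted p = 0.0322) and Drosha, which cuts primary microRNAs, by -0.71 ± 0.19 (adjusted p = 0.0469). Zfp36l1, an RNA decay factor, was higher by 1.63 ± 0.23 (adjusted p = 0.0112). These counts depended on the scaling: with quantile normalization 1 was lower and 3 were higher, with a median of -0.13, and Khsrp (-0.29 ± 0.21) and Drosha (-0.45 ± 0.17) were not called.

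Of 26 other let-7 target genes tested, 7 were lower and 3 were higher in bone marrow (median -0.67), beside 13.9% and 8.88% of all genes, and with quantile normalization 5 were lower and 3 higher. Hmga1, the relative of Hmga2, differed by -2.19 ± 0.25 (SE, limma adjusted p = 0.00619), Arid3b, the relative of Arid3a, by -2.62 ± 0.40 (adjusted p = 0.0128) and Cdc34, a ubiquitin-conjugating enzyme of the cell cycle, by -1.87 ± 0.28 (adjusted p = 0.0123). Acvr1b, an activin receptor that was well above background on 1 of the 2 fetal liver arrays, was higher by 2.36 ± 0.35 (adjusted p = 0.0124). Of 11 family relatives of the 8 genes, 3 were lower and none was higher (median -0.47). They were Hmga1 and Arid3b, which are on both lists, and Sox18, the relative of Sox17, at -4.27. Sox18 was well above background on 2 of 4 bone marrow arrays. It passed the filter only through fetal liver, where it was high, so its call is a description only. With quantile normalization the median of the relatives was 0.06, 2 were called, and Sox18 (-4.23 ± 1.12, adjusted p = 0.0547) was not.

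Of 16 tested genes of the Igf2 axis or bound by Igf2bp proteins, 3 were lower and 1 was higher in bone marrow (median -0.58; 2 and 1 with quantile normalization). These 4 of 16 are close to the 22.8% called over all genes. Igf2, the fetal growth factor, was well above background on both fetal liver arrays and 1 of 4 bone marrow arrays, and differed by -2.98. It passed the filter only through fetal liver, where it was high, so its call is a description only. Igf2r, the receptor that clears Igf2, differed by -1.39 ± 0.35 (SE, limma adjusted p = 0.0444). Elavl1, another stabiliser of mRNA, differed by -0.999 ± 0.25 (adjusted p = 0.0438). With quantile normalization Elavl1 was at -0.48 ± 0.14 (adjusted p = 0.0670). Syncrip, an RNA-binding protein, was higher by 1.00 ± 0.19 (adjusted p = 0.0226).

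Of 18 other genes known from fetal stem cells that were tested, 11 were lower in bone marrow, none was higher and 7 were not called, beside 13.9% lower and 8.88% higher over all genes. Their median was -2.49, or -1.73 with the 3 genes at background in bone marrow put at their bounds, and 9 were lower with quantile normalization. Of the 15 well above background on at least 1 array of each tissue, 8 were lower. These counts hold genes that passed the filter only through fetal liver, where they were high, and are a description only. Hbb-y and Hbb-bh1, embryonic beta-like globins, were among them, with differences of -10.17 and -4.83. They were well above background on 1 and 2 of 4 bone marrow arrays. Dlk1, an imprinted gene also counted among the hepatoblast markers, differed by -6.49 ± 0.27 (SE, limma adjusted p = 0.00104). Grb10, an imprinted adaptor of insulin and Igf receptors, differed by -2.79 ± 0.20 (adjusted p = 0.00244).

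Of 19 genes known from adult stem cells, 6 were higher, 3 were lower and 10 were not called in bone marrow (median 1.21; 7 higher and 1 lower with quantile normalization), beside 8.88% higher and 13.9% lower over all genes. Clca3a1 and Mecom, a transcription factor of stem cell maintenance, were at background on both fetal liver arrays. Both entered the test only through bone marrow, so their calls are a description only and bounds stand for them. Clca3a1 was at least 61.2-fold and Mecom at least 1.84-fold higher in bone marrow. Without these 2, of the 17 other genes tested 4 were called higher and 3 lower. The list median was 1.17 with both at their bounds. Nr4a1, an orphan nuclear receptor induced as an immediate early gene, was higher by 4.97 ± 0.42 (SE, limma adjusted p = 0.00342) and Ly6a by 3.90 ± 0.75 (adjusted p = 0.0231).

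Fewer of these genes were called from the scanner file: 0 of 15 for let-7 processing, 2 lower of 26 let-7 targets, 1 lower of 16 for the Igf2 axis, 1 lower of 11 relatives, 7 lower of 18 fetal genes and 1 higher of 19 adult genes, where 2.1% of all genes were called. Hmga1 (adjusted p = 0.0305), Cdc34 (0.0434), Dlk1 (0.0288) and Nr4a1 (0.0218) were called in the limma fit with either source. Cdc34 was not called with quantile normalization of the scanner values (adjusted p = 0.0651). Igf2, Hbb-y and Hbb-bh1 were called with either source too, but with the table's values passed the filter only through fetal liver. Their calls are a description only, as are those of the fetal genes at background in bone marrow.

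**Figure D4:**
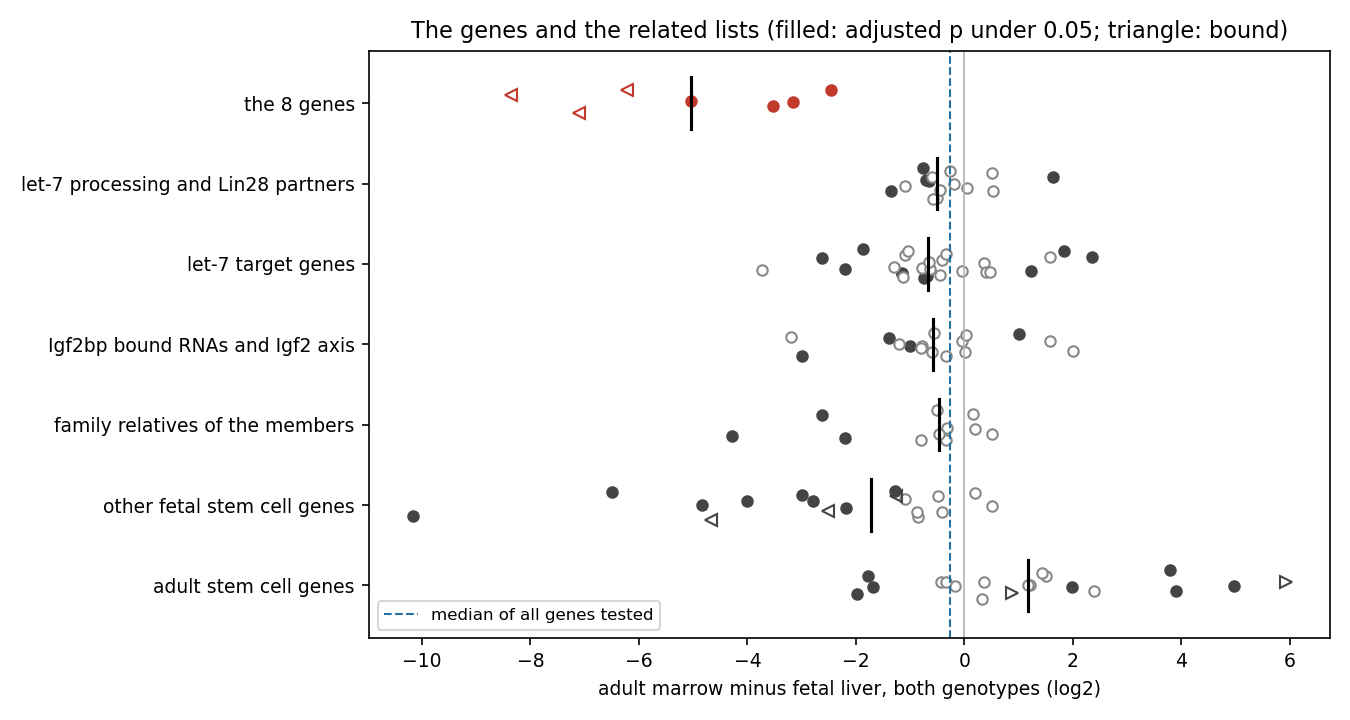
Difference in level, adult bone marrow minus fetal liver over both genotypes (log2, value table for bone marrow WT replicate 1), for the 7 genes tested (red) and for 6 lists of related genes; filled points had an adjusted p under 0.05, triangles are bounds of genes at background in 1 tissue, black bars are list medians with bounds included and the dashed line is the median of all genes. The 7 genes lie at -2.46 or lower, the other fetal genes have a median of -1.73 and the adult genes one of 1.17.

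In bone marrow, KO against WT, no gene of any of the 6 lists was called by limma with either source. Over all genes few were called there, 0.807% of 12882 with the table's values and 0% of 13107 with the scanner file. The largest differences with the table's values were in Myc, a let-7 target and an Igf2bp-bound mRNA, at -2.13 ± 0.29 (SE, adjusted p = 0.0512), and in its relative Mycn, at 1.93 ± 0.37 (adjusted p = 0.117). From the scanner file these were -1.02 ± 0.81 and 2.87 ± 0.96 (adjusted p = 1 for both). Igf1r, a let-7 target that is the receptor for Igf1 and Igf2, had a difference of 0.95 ± 0.32 (adjusted p = 0.354).

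The genes whose pattern over the 6 arrays was most like that of each gene were found by the root mean square distance between log2 levels centred on each gene's mean, with the table's values, among the 13621 genes tested. Lin28b was closest to Hbb-y (0.610), Igf2bp1 (0.626) and Igf2bp3 (0.955). Igf2bp1 was closest to Igf2bp3 (0.329), then Lin28b and Olr1 (0.677), and Igf2bp3 to Igf2bp1, then Olr1 (0.388) and Csta3 (0.871). In these genes the bone marrow values lie at background, so that there the likeness reflects background more than expression. Hbb-y itself had levels of -3.89 and -4.11 in bone marrow KO and -4.80 and -5.36 in bone marrow WT, against 6.22 in fetal liver KO and 5.04 in fetal liver WT.

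The genes measured in both tissues had other neighbours. Hmga2 was closest to Ccdc154 (0.338), Tnni2 (0.396) and Fscn1 (0.468), and of these Tnni2 was well above background on all 6 arrays. Arid3a was closest to Evl (0.121), Hesx1 (0.276) and Pdlim4 (0.280). Evl had levels of 2.36 and 2.66 in bone marrow KO and 3.04 and 3.00 in bone marrow WT, against 6.25 in fetal liver KO and 6.04 in fetal liver WT. In the scanner file of bone marrow WT replicate 1 Evl was at 6.93, above both fetal liver arrays, so this likeness rests on the table's values. Igf2bp2 was closest to Art1 (0.181), Stc2 (0.229) and Gsc2 (0.257), and Lin28a to Wtip (0.155), Plxna2 (0.188) and Bcl2l15 (0.225). Art1 and Gsc2 were well above background on 0 of 4 bone marrow arrays, Plxna2 on 1 and Bcl2l15 on 2, while Stc2 and Wtip were so on all 4.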

How the data were processed

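Total RNA of sorted KSL cells, 10 ng a sample, was amplified and Cy3-labelled per the labels' protocols, and read on 1-colour Agilent arrays. Spot intensity is given in the deposited scanner files. The submitters' processing notes name Agilent Feature Extraction 10.7.1.1, and the signal used, gProcessedSignal, was corrected for background per the file headers. The authors' deposited value table holds a linear ratio per probe, which for 5 of 6 samples equals the signal divided by a constant, so its scale and direction are those of the signal and genes were not centred (column medians 0.056 to 0.0709). For the array labelled bone marrow WT replicate 1 it does not, and both records were used.

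Levels are log2 of the signal minus the array's 75th percentile. Control and outlier spots were left out and spots of a probe averaged. Symbols were given through RefSeq accessions for 27235 of 55681 probes (20660 genes), and each gene was represented by its brightest probe. A gene was tested if 1 group or more had its probe well above background throughout. For the table's column a level of -3.7 stood in for that flag, which it matches for 99.1% of the probes of bone marrow KO replicate 1. Tests used limma 3.58.1 in R 4.3.3 (package data.table, version 1.17.8), lmFit and eBayes, two-sided, with Benjamini-Hochberg adjustment over all genes tested at 0.05, and were tested on simulated data.

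Alternatives were quantile normalization, no filter, a filter on every array, the mean of a gene's probes, normexp with offset 50 (on the spot medians, since a spot mean was not in the files), each bone marrow array left out, and the slide as a block. Each of the 3 slides held 1 KO and 1 WT array of 1 tissue, scanned together, so the slide is also the replicate pair. The number of arrays limits precision. The genes, the lists of related genes and markers, and the tests were chosen with earlier results of these data known. Genes named beside the 8 are, per list, up to 4 called with the smallest adjusted p between tissues and up to 2 with the largest KO difference in bone marrow, and the 3 nearest patterns per gene.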

Additional observations from a re-analysis of the deposited data

How the results depend on the processing

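With the table's values for bone marrow WT replicate 1, the 4 genes measured in both tissues kept their direction and side of the threshold over both genotypes in these settings. They were quantile normalization (21.6% of all genes called), no filter (8.72%), the mean of a gene's probes (22.7%), the slide as a random block (6.03%) and any bone marrow array left out (8.29% to 12.4%). Calls of the 3 genes at background in bone marrow are a description only. A filter on every array leaves 4 genes to test. Of these, 4 were called over both genotypes (25.5% of all genes) and 3 within WT (2.52%). Within each genotype the differences of these 4 stayed below 0 with an array left out. Lin28a lay nearest to 0, at -2.69 to -2.28 within WT and -2.97 to -1.88 within KO. With the scanner file only Arid3a of the 4 was called over both genotypes (2.1% of all genes called). Under quantile normalization it was not (-2.62, limma adjusted p = 0.0606), where 2.55% of all genes were called. With a filter on every array 2 of 3 were called (2.03%). With an array left out, calls among all 7 were 7 without WT replicate 1 (10.6% of all genes), 2 without WT replicate 2 (0.0427%) and 0 without either KO array (0% and 0.0072%). Within WT 1 of the 7 was called with no filter, where 0.00968% of all genes were called. With an array left out the scanner differences of the 4 genes stayed below 0 within each genotype. Quantile normalization put the median tissue difference of all genes at -0.04 (table) and -0.06 (scanner file), in place of -0.26 and -0.30.

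For KO against WT in bone marrow, the replicate block (slide as pair) changed no call of the 4 genes with either source: 0 were called, with Hmga2 at -0.81 and an adjusted p of 0.0622 with the table. Of all genes, 7.69% were called with that block with the table and 0% with the scanner file. With WT replicate 2 left out, the scanner file gave Igf2bp2 4.59 and Hmga2 2.34, both resting on the single array labelled bone marrow WT replicate 1. Directions that turned were all of uncalled values. With the scanner file Lin28a was 0.39 without KO replicate 1 and 0.11 without WT replicate 1 (range -0.70 to 0.39), and Hmga2 was -0.65 without WT replicate 1 (range -0.65 to 2.34). With the table Igf2bp2 was -0.081 without KO replicate 1 (range -0.081 to 0.40) and Lin28a -0.24 without KO replicate 2 (range -0.24 to 0.85). In the interaction Lin28a was 0.14 without KO replicate 1 (scanner file; range -0.95 to 0.14), and with the table's values -0.49 without KO replicate 2 and -0.14 without WT replicate 1 (range -0.49 to 0.60), while Hmga2 was 0.25 and 0.09 in those fits (range -0.38 to 0.25). The cause of these moves was not tested. With an array left out, the scanner file's interaction ran from 0.35 to 4.68 for Igf2bp2 and from 0.09 to 3.08 for Hmga2. For Arid3a it ran from -1.58 to -0.795. With the table's values it ran from 0.011 to 0.49 for Igf2bp2 and from -0.93 to -0.69 for Arid3a. These fits leave a group with 1 array, so only their differences are given here.

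Counts over all genes moved further. Between tissues 3103 genes differed with the table's values, 1801 with no filter, 822 with the slide as a random block and 1135 to 1697 with an array left out. Within WT 781 did, against 260 unfiltered and 285 when every array had to pass, and within KO 1327, 469 and 724 (872 to 1618 and 1441 to 1935 with an array left out). Between KO and WT in bone marrow 104 did, 7 unfiltered, 27 when every array had to pass, 991 with the replicate block, 156 to 702 with an array left out, and over all 6 arrays 22 without and 0 with the block. In the interaction 94 were called under quantile normalization and 0 otherwise, apart from fits without an array (0 to 303). The scanner file gave 290 between tissues, 191 with normexp and 0 to 1544 with an array left out. The 3 genes at background in bone marrow give bounds only, and signal over background limits any statement on their KO effect there.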
